A study of Mus musculus with 32 samples.

Results

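The circadian clock genes examined here are Arntl (also called Bmal1), Clock, Per1, Per2, Per3, Cry1, Cry2, Nr1d1, Nr1d2 and Dbp. They were matched by symbol, and all 10 were found among the 55401 gene identifiers counted in mouse epidermis. The question was how their RNA levels differed between mice with and without a single UV exposure, and whether the loss of PPARβ, the nuclear receptor encoded by Ppard, altered that difference. The study held 32 mice of the hairless SKH-1/SV129/BL6/J cross, aged 10 to 14 weeks, in 8 groups of 4 given by sex, genotype and treatment. WT mice carried functional Ppard, and the mice labelled KO were their PPARD-/- littermates. UV mice received 120 mJ/cm2 on the back, mostly as UVB, and their dorsal skin was taken 24 h later. Control mice were sham-handled without UV and carry the label of time 0. The labels give no hour of the day for any mouse, so the effect of UV and a difference in the hour of collection between the groups cannot be told apart.

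The mammalian clock is a feedback loop of transcription. The proteins of Arntl and Clock pair and bind E-boxes in the promoters of the Per, Cry, Nr1d and Dbp genes, the Per and Cry proteins then block that pair, and the Nr1d proteins (REV-ERBs) repress Arntl. Arntl RNA therefore peaks at the opposite phase to Nr1d1, Nr1d2, Per3 and Dbp in tissues kept on a light cycle. Keratinocytes run this clock, and DNA replication and nucleotide excision repair in the epidermis are known to vary over the day.

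Each library held 22919428 to 40653581 reads assigned to genes (median 27600228). Levels are given as cpm, the counts of a gene relative to the scaled total of its library, and differences as log2 fold changes from a single model of all groups. The 4 p53-linked genes used to check the UV labels, Cdkn1a, Mdm2, Ccng1 and Sesn2, rose in both genotypes. Ppard itself was counted at 87.3 to 105 cpm in WT Control and 70.3 to 88.9 cpm in KO Control mice, and the difference did not pass the test (log2 -0.26, adjusted p = 0.156). After UV the ranges did not overlap, at 252 to 326 cpm in WT and 175 to 239 cpm in KO mice (log2 -0.42, adjusted p = 0.00114). The part of Ppard that was deleted is not given in the sources used here, so whole-gene counts may include reads from the remaining exons. Markers of other cells moved with UV. The summed level of 4 suprabasal keratinocyte markers was 52780 to 95096 cpm in Control and 4801 to 24436 cpm in UV mice, that of 4 basal markers 5039 to 15737 and 16106 to 28780 cpm, that of 4 T cell markers 89.9 to 192 and 16.7 to 74.3 cpm, that of 4 Langerhans cell markers 225 to 781 and 176 to 632 cpm, and that of 5 myeloid and neutrophil markers 11.5 to 148 and 620 to 1622 cpm. None of these markers was at 0 in every mouse, and their part in the clock gene differences was not tested. The basal markers did not all move with their sum: 2 rose, 1 fell and 1 did not pass in WT mice. In KO mice 3 of them rose and 1 did not pass. Of all genes, 71% passed in WT and 70.8% in KO mice. In bulk epidermis, fewer cells of a type and less RNA per cell cannot be told apart. In 9 libraries (4 Control and 5 UV, 7 of them from females) the 5 skeletal muscle markers summed to over 1000 cpm, and in 1 of these, mouse 54F of the KO female UV group, the 6 fibroblast markers reached 1982 cpm against at most 92.2 cpm elsewhere.

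Among the 10 genes, Nr1d1 was the most abundant per length of transcript and Per2 the least in WT Control mice. On the scale of cpm per kilobase of exon, Nr1d1 averaged 34.1 ± 10.4 (SD, n = 8) and Per2 0.281 ± 0.149 (SD, n = 8). Nr1d2, Arntl, Clock and Per1 followed at means of 10.2, 8.30, 8.28 and 7.92. Nr1d2 lay below Nr1d1 in every mouse, while Nr1d2, Arntl, Clock and Per1 each overlapped the next in range. Cry2, Cry1, Per3 and Dbp came next at means of 5.18, 3.91, 2.42 and 2.15, again each overlapping the gene above, and Per2 lay below them all. In WT mice after UV, Nr1d1 was still first (31.9 ± 9.11, SD, n = 8), Per1 was next at 14.7 and Cry1 after it at 9.30. Per3 was then lowest, at 0.772 ± 0.120 (SD, n = 8), and overlapped Dbp at 0.893. In KO mice Nr1d1 was first and Per2 last without UV, and Nr1d1, Per1 and Cry1 again led after UV, with Per3 last.

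UV-exposed WT epidermis held more Per2, Cry1 and Per1 RNA and less Per3, Dbp, Nr1d2, Arntl, Cry2 and Clock RNA than WT epidermis without UV. Of the 10 genes, 3 rose, 6 fell and Nr1d1 did not pass the test. In KO mice the same 3 genes rose, and Per3, Arntl, Clock and Cry2 fell. Most of the transcriptome differed between UV and Control mice: 71% of the 15546 genes tested passed the same threshold in WT and 70.8% in KO mice. The 9 of 10 clock genes in WT and 7 of 10 in KO thus stand near that background. The ranges of the Control and UV mice did not overlap for 3 of the 10 genes over both genotypes, against 28.3% of all genes, for 4 in WT mice, against 43.4%, and for 3 in KO mice, against 35.1%. The median log2 difference over all genes was -0.014 in WT and 0.088 in KO mice, and over the clock genes -0.43 and -0.42.

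**Figure D1:**
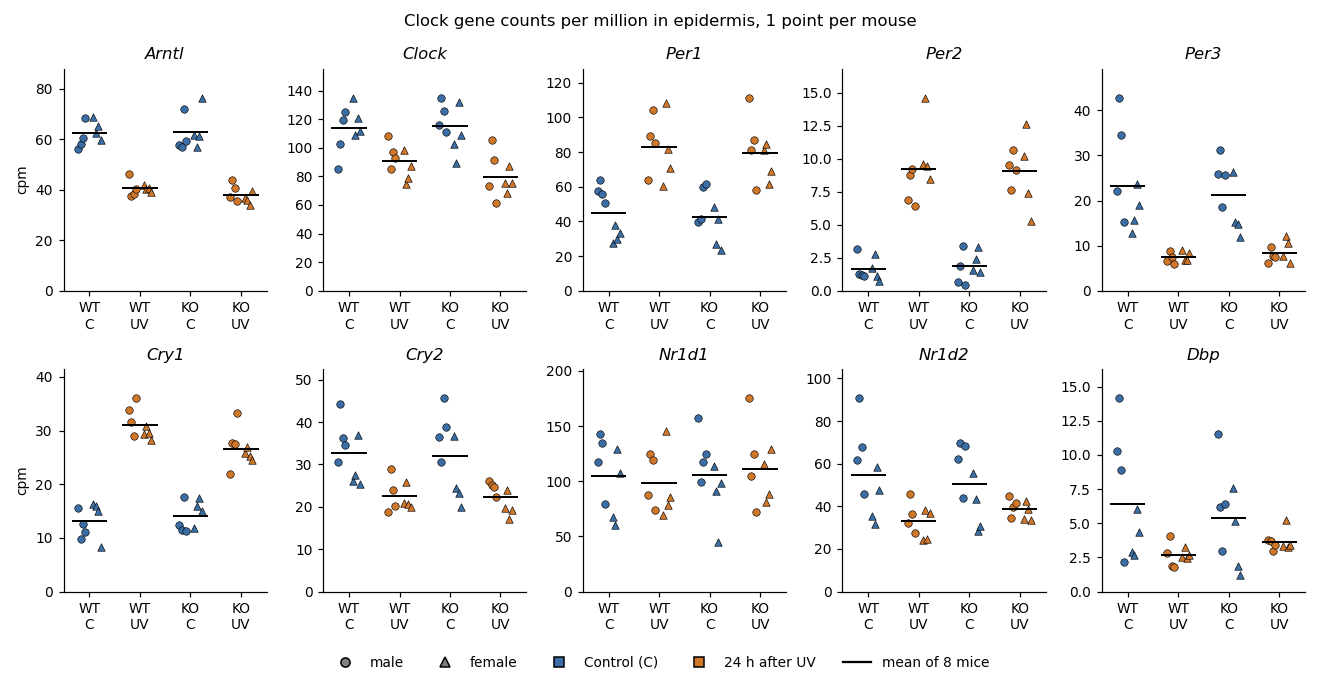
Level in cpm (vertical axis, from 0, a separate scale for each gene) of the 10 clock genes in each of the 32 mice, for WT and KO mice without UV (C) and 24 h after UV. Circles are males, triangles females and lines the means of 8 mice; the Control and UV mice do not overlap for Arntl, Per2 and Cry1, and the Control mice are the more widely spread for Dbp and Per3.

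Arntl and Clock encode the activating pair. In GRCm38, the build of the counts, Arntl lies at chr7:113207465-113314126, plus strand, and Clock at chr5:76209868-76304792, minus strand. Arntl was at 56.2 cpm in the lowest, 61.6 in the median and 68.98 in the highest WT Control mouse, and at 37.4, 40.4 and 46.2 cpm in the WT UV mice. In KO mice these values were 56.8, 60.3 and 76.5 cpm without UV and 34.2, 36.8 and 43.9 cpm after it. All 16 Control mice thus lay above all 16 UV mice. The log2 fold change was -0.62 ± 0.06 (SE) in WT (adjusted p = 1.76e-09) and -0.73 ± 0.06 (SE) in KO mice (adjusted p = 9.44e-11). Clock ranged from 85.4 to 135 cpm in WT Control (median 116) and from 74.8 to 109 cpm in WT UV mice (median 90.2), and the ranges overlapped. It fell by 0.33 ± 0.10 (SE) on the log2 scale in WT (adjusted p = 0.00442) and by 0.53 ± 0.10 (SE) in KO mice (adjusted p = 3.41e-05). An antisense gene, Gm45355, overlaps Arntl. On the strand of Clock, Gm43658 overlaps Clock by 4176 bases and a pseudogene of Ube2n by 459 bases. The libraries were made with a stranded kit, but the strand setting of the counting is not given in the sources used here, so reads of Arntl and its antisense partner may not have been separated.

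The repressor genes of the Per and Cry families split. Per1 lies at chr11:69095217-69109960, plus strand, Per2 at chr1:91415982-91459324, minus strand, and Cry1 at chr10:85131700-85185064, minus strand. Per2 was the gene with the largest rise. It was found at 0.730 cpm in the lowest, 1.23 in the median and 3.17 in the highest WT Control mouse, and at 6.45, 8.996 and 14.6 cpm after UV. The KO mice held 0.455, 1.73 and 3.39 cpm without and 5.30, 9.34 and 12.6 cpm with UV, so no Control mouse reached a UV mouse in either genotype. Per2 rose 5.51-fold in WT (log2 2.46 ± 0.33, SE, adjusted p = 1.95e-07) and 4.86-fold in KO mice (log2 2.28 ± 0.33, SE, adjusted p = 6.35e-07). Only 17 to 104 reads lay behind its Control values. Cry1 was at 8.25, 13.8 and 16.4 cpm (lowest, median and highest) in WT Control and 28.2, 30.2 and 36.0 cpm in WT UV mice. It was at 11.3, 13.7 and 17.6 cpm in KO Control and 22.0, 26.4 and 33.3 cpm in KO UV mice, again without overlap. Its rise was 2.38-fold in WT (log2 1.25 ± 0.12, SE, adjusted p = 7.85e-10) and 1.89-fold in KO mice (log2 0.92 ± 0.12, SE, adjusted p = 2.02e-07). Per1, an immediate early member of the family, was at 27.8, 44.1 and 63.9 cpm in WT Control and 60.2, 83.4 and 108 cpm in WT UV mice. The overlap was narrow, and Per1 rose 1.93-fold in WT (adjusted p = 3.58e-06) and 1.88-fold in KO mice (adjusted p = 7.24e-06).

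Per3 (chr4:151003652-151044665, minus strand) and Cry2 (chr2:92403646-92434043, minus strand) went the other way. Per3 was at 12.7, 20.5 and 42.8 cpm in WT Control and at 5.83, 7.09 and 9.01 cpm in WT UV mice, with no overlap. In KO mice it was at 11.9, 22.1 and 31.1 cpm without UV and 6.14, 7.68 and 12.1 cpm after it, with overlap, and the highest UV mouse was 54F, the library high in fibroblast markers. Per3 was 3.04-fold lower in WT (log2 -1.61 ± 0.20, SE, adjusted p = 3.92e-08) and 2.46-fold lower in KO mice (log2 -1.30 ± 0.20, SE, adjusted p = 1.25e-06). Without mouse 54F the KO value was -1.37. Camta1 spans Per3 on the same strand in the annotation. Cry2 was at 25.4, 32.6 and 44.2 cpm in WT Control and 18.8, 20.8 and 29.0 cpm in WT UV mice, with overlap. It fell by 0.54 ± 0.12 (SE) on the log2 scale in WT (adjusted p = 0.000236) and by 0.50 ± 0.12 (SE) in KO mice (adjusted p = 0.000489). D930015M05Rik overlaps Cry2 by 23417 bases on the opposite strand.

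The REV-ERB genes Nr1d1 and Nr1d2 encode the repressors of Arntl and lie at chr11:98767932-98775333, minus strand, and at chr14:18204054-18239127, minus strand. Nr1d1 was at 60.2, 113 and 143 cpm in WT Control and 69.4, 86.9 and 146 cpm in WT UV mice, which covered almost the same range. Its log2 difference was -0.08 in WT (95% interval -0.51 to 0.34, adjusted p = 0.735) and 0.09 in KO mice (-0.34 to 0.52, adjusted p = 0.709). Changes within those bounds are not excluded. Nr1d1 shares 1075 bases with Thra on the opposite strand. Nr1d2 was at 31.6, 53.1 and 90.6 cpm in WT Control and 24.3, 34.5 and 45.6 cpm in WT UV mice. It was 1.62-fold lower after UV in WT (log2 -0.69 ± 0.16, SE, adjusted p = 0.000363). In KO mice it was at 28.6, 49.8 and 69.8 cpm without UV and 33.5, 39.3 and 44.7 cpm after it, and the difference missed the threshold (log2 -0.35 ± 0.16, SE, adjusted p = 0.0543), which was passed in 14 of 40 alternative settings.

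Dbp, a PAR bZIP transcription factor that is read as an output of the clock (chr7:45705088-45710203, plus strand), was at 2.13, 5.21 and 14.1 cpm in WT Control and 1.803, 2.58 and 4.04 cpm in WT UV mice. The ranges overlapped, and the lowest UV mouse lay below the lowest Control mouse. Dbp was 2.23-fold lower after UV in WT (log2 -1.16 ± 0.34, SE, adjusted p = 0.00340). In KO mice it was at 1.24, 5.69 and 11.5 cpm without and 2.99, 3.39 and 5.27 cpm with UV, and the log2 difference of -0.51 ± 0.33 (SE) did not pass (adjusted p = 0.177). The highest KO UV mouse was again 54F. Without the 9 libraries high in muscle markers the KO value of Dbp was 0.05 (adjusted p = 0.918) and the WT value -1.18 (adjusted p = 0.00588). Sphk2 overlaps Dbp by 737 bases on the opposite strand.

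**Figure D2:**
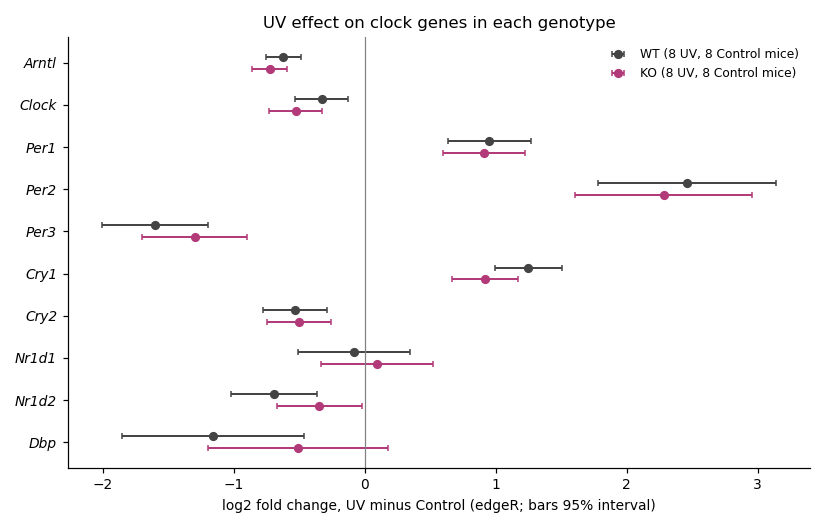
Log2 fold change of UV against Control (horizontal axis) with its 95% interval from edgeR for each clock gene in WT and in KO mice, 8 against 8 mice in each. Per2 lies at 2.46 in WT and 2.28 in KO mice, Per3 at -1.61 and -1.30, and the intervals of the genotypes overlap for every gene.

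No difference between the genotypes passed the test for these genes. In the test of whether the UV effect differed between KO and WT mice, 0 of 10 genes passed, against 0.765% of all genes (edgeR). DESeq2 and limma also called 0 of the 10. At an unadjusted p under 0.05 in edgeR the count was 0 of 10, against 3042 of the 15546 genes tested. The largest estimates were for Dbp, at 0.65 with a 95% interval from -0.32 to 1.62, for Nr1d2 at 0.35 (-0.12 to 0.81) and for Cry1 at -0.33 (-0.69 to 0.03). Differences within those bounds are not excluded. Without the 9 libraries high in muscle markers the estimate for Dbp was 1.23 (adjusted p = 0.213). KO and WT mice without UV differed in 0 of 10 genes, against 0.206% of all genes, and after UV in 0 of 10, against 3.31%. For Arntl the interval of the difference without UV was narrow, from -0.13 to 0.14 on the log2 scale, whereas for Dbp it ran from -0.89 to 0.48.

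The sexes shared the main directions. In WT males the test was passed by 8 of 10 genes and in WT females by 7, against 60.9% and 61.3% of all genes. In KO males the count was 8 and in KO females 6, against 61.7% and 60.7%. Arntl, Per1, Per2, Per3 and Cry1 passed in all 4 strata with 1 direction each. Without the 9 libraries high in muscle markers, which left 2 mice a group in KO females, Per2 (adjusted p = 0.102), Per3 (adjusted p = 0.130) and Cry1 (adjusted p = 0.0689) no longer passed there in edgeR, and Per1 in WT males passed in 37 of 39 alternative settings. Dbp fell in WT males (log2 -1.75 ± 0.48, SE, adjusted p = 0.00265). Its values in WT females (-0.56, adjusted p = 0.319), KO males (-0.96, adjusted p = 0.0808) and KO females (-0.05, adjusted p = 0.932) did not pass. Without the 9 libraries the value in KO females was 1.06 (adjusted p = 0.159). The difference of the UV effect between sexes was tested directly and passed for 0 of 10 genes, as for 0% of all genes (edgeR). DESeq2 and limma called none of the 10. In edgeR 4 of the 10 clock genes were under an unadjusted p of 0.05, against 1091 of the 15546 genes tested. The largest estimates were 1.05 for Dbp (95% interval 0.08 to 2.02) and 0.81 for Per3 (0.25 to 1.37), both smaller falls in females. Without the 9 libraries they were 1.83 for Dbp and 1.00 for Per3 (adjusted p = 0.813 for both).

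Without UV, 4 of the 10 genes were lower in females than in males, against 6.86% of all genes in either direction. Per1 showed the clearest gap. WT Control males held 50.4, 55.9, 57.6 and 63.9 cpm of Per1 and WT Control females 27.8, 29.9, 33.2 and 37.9 cpm, with no overlap. KO Control males held 39.6, 41.2, 60.1 and 61.8 cpm and KO Control females 23.2, 27.1, 41.1 and 48.3 cpm, with overlap. Over both genotypes the log2 difference was -0.68 ± 0.15 (SE, adjusted p = 0.0101). Nr1d2 (-0.62, adjusted p = 0.0208), Cry2 (-0.43, adjusted p = 0.0290) and Per3 (-0.63, adjusted p = 0.0452) passed as well, and Dbp had a larger difference that did not (-0.96, adjusted p = 0.0763). Per1 passed in 37, Nr1d2 in 35, Cry2 in 26 and Per3 in 12 of 38 alternative settings. The count of 4 moved between 1 and 5 when a single mouse was left out. Of the 9 libraries high in muscle markers, 4 came from female Control and 0 from male Control mice, and their part in these differences was not tested. Without those 9 libraries Per1 had a difference of -0.75 (adjusted p = 0.0529) and Dbp one of -1.68 (adjusted p = 0.0368). After UV 0 of 10 genes differed between the sexes (edgeR; 0 with DESeq2 or limma), against 3.03% of all genes. No hour of collection is in the labels for either sex.

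Mice of the same group differed widely in some clock genes and little in others. The SD of log2 cpm among mice of a group was 0.733 for Dbp and 0.670 for Per2, higher than for 81.5% and 79.0% of all genes tested. It was 0.126 for Arntl, higher than for 11.7% of genes. In the Control groups alone the SD of Dbp was 0.979 and in the UV groups 0.339, a ratio of 2.89 that 0.875% of all genes exceeded. For Per2 the SDs were 0.876 and 0.360, and for Cry1 0.335 and 0.145, ratios exceeded by 1.77% and 2.03% of genes. The SD was lower after UV for 9 of the 10 genes, Clock being the exception (0.194 and 0.218), and for 38.2% of all genes. The spread was compared as a description and the ratios were not tested. The low Control counts of Per2, at 17 to 104 reads, add counting error to its spread. Dbp had 35 to 384 reads in Control mice, and its median cpm was lower after UV in both genotypes. Counting error thus adds to the spread of Dbp in both treatments.

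**Figure D3:**
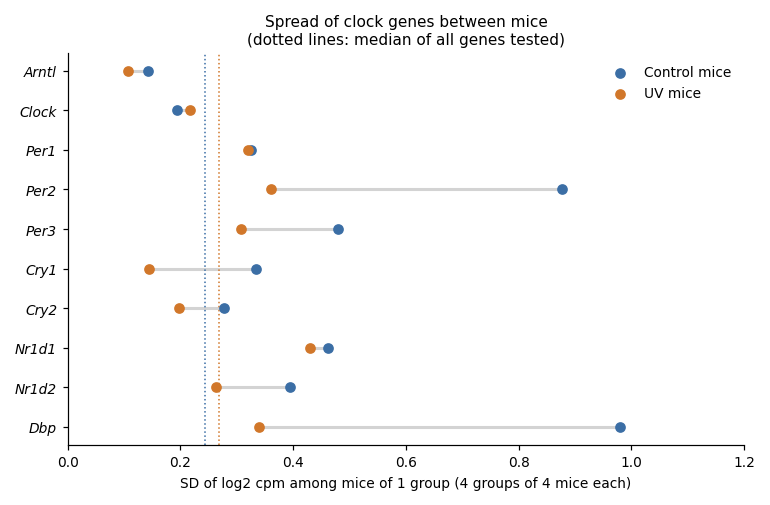
Residual SD of log2 cpm among mice of the same group (horizontal axis) for each clock gene, in the 4 Control groups and the 4 UV groups of 4 mice each. Dotted lines mark the medians of all genes tested, 0.243 in Control and 0.269 in UV mice; Dbp falls from 0.979 to 0.339.

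Some of these differences between mice of a group were correlated among clock genes. After each mouse was compared with the mean of its own group, 10 of 45 pairs of clock genes had a correlation over 32 mice that passed a permutation test of mice within groups (two-sided, 100000 draws, adjusted over the 45 pairs), and 18 were under an unadjusted p of 0.05. Dbp and Nr1d2 had the highest correlation (Pearson r = 0.80, Spearman rho = 0.79, permutation p = 2e-05, adjusted p = 0.0009). Per3 followed Dbp (r = 0.73, rho = 0.63, permutation p = 0.0002, adjusted p = 0.003) and Nr1d2 (r = 0.70, rho = 0.68, permutation p = 0.00012, adjusted p = 0.0027). For each pair the 2 mice farthest from the median of 1 of its genes were then left out. That gene was Nr1d2 for Dbp and Nr1d2, and Per3 for the pairs of Per3. These 3 values of r were then 0.76, 0.60 and 0.62. Nr1d1 was correlated with Nr1d2 (r = 0.63, rho = 0.59, permutation p = 0.0011, adjusted p = 0.0099) and with Dbp (r = 0.50, rho = 0.56, permutation p = 0.00703, adjusted p = 0.0365). The p-values in this paragraph are those of r, unless rho is named. By r, Arntl was negatively correlated with Dbp (r = -0.58, rho = -0.47, permutation p = 0.00744, adjusted p = 0.0365). The permutation test of rho did not pass for that pair (permutation p = 0.0225, adjusted p = 0.0845). Arntl was also negatively correlated with Nr1d2 (r = -0.56, rho = -0.53, permutation p = 0.00323, adjusted p = 0.0208). Its correlations with Per3 (r = -0.44, rho = -0.36, permutation p = 0.0349, adjusted p = 0.0981) and Nr1d1 (r = -0.09, rho = -0.10, permutation p = 0.693, adjusted p = 0.780) did not pass. Of the others, Arntl and Clock (r = 0.54), Per2 and Cry1 (r = 0.63) and Per1 and Cry2 (r = 0.64) were positively correlated, with adjusted permutation p-values of 0.0365, 0.0158 and 0.0054. All 10 pairs kept their sign without the 2 farthest mice, and the smallest absolute r was then 0.42.

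**Figure D4:**
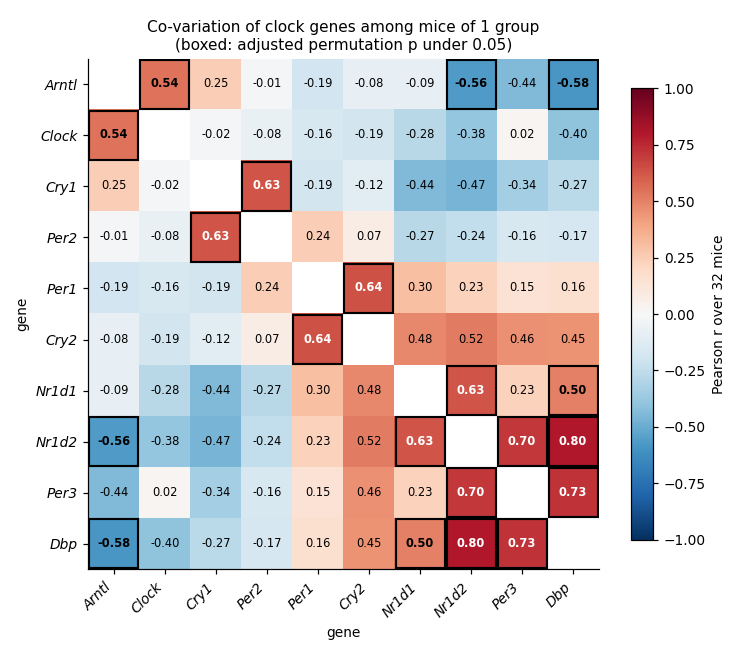
Pearson r between the deviations of each pair of clock genes from the means of the 8 groups, over 32 mice; boxes mark the 10 pairs with an adjusted permutation p under 0.05. Dbp, Nr1d2, Per3 and Nr1d1 have positive r in the lower right corner, where the pair of Per3 and Nr1d1 (0.23) is not boxed. Arntl is negatively correlated with Dbp (-0.58) and Nr1d2 (-0.56).

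The pairs were also computed within each treatment, and the difference in r between treatments was not tested. Within the 16 Control mice 5 of 45 pairs passed by r. Among them were Per3 and Nr1d2 (r = 0.89, rho = 0.88, permutation p of r = 7e-05, adjusted p = 0.00315). Arntl and Dbp passed by r (r = -0.75, permutation p = 0.00524, adjusted p = 0.0472) but not by rho (rho = -0.60, permutation p = 0.0400, adjusted p = 0.200). Within the 16 UV mice 0 of 45 pairs passed, with 10 under an unadjusted p of 0.05. The values of single Control mice follow. The 2 Control mice lowest in Dbp were KO females, 69F with 1.24 cpm and 62F with 1.86 cpm. Mouse 69F also had the lowest Per3 (11.9 cpm), the lowest Tef (22.4 cpm) and the highest Arntl (76.5 cpm) of the Control mice. The Control mouse highest in Dbp, WT male 54M with 14.1 cpm, had the highest Per3 (42.8 cpm), Nr1d2 (90.6 cpm) and Tef (120 cpm) and an Arntl of 58.01 cpm. The ratio of Arntl to Dbp within a mouse ran from 4.10 to 61.7 in Control mice and from 6.78 to 22.3 in UV mice. Without the 9 libraries high in muscle markers, 1 of 45 pairs passed over the remaining 23 mice, Per1 and Cry2. Dbp and Nr1d2 then had r = 0.68 (rho = 0.48, permutation p = 0.0152, adjusted p = 0.123).

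**Figure D5:**
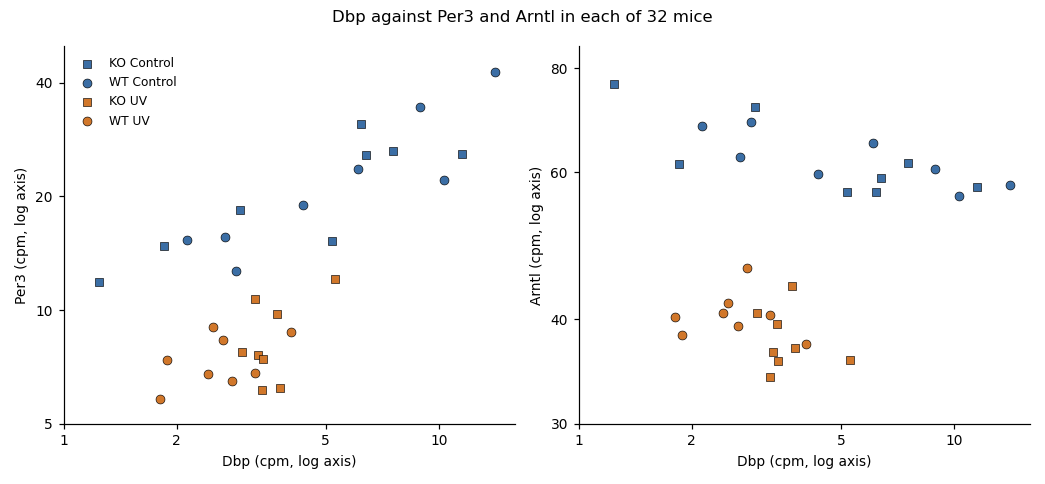
Level of Dbp (horizontal axis, cpm on a log scale) against Per3 and against Arntl (vertical axes, cpm on log scales), 1 point for each of 32 mice. Among Control mice Per3 rises and Arntl falls with Dbp over a range of Dbp from 1.24 to 14.1 cpm, and the UV mice sit between 1.803 and 5.27 cpm of Dbp with lower Per3 and Arntl.

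The directions of the UV differences were set beside the signs of these correlations. Of the 10 correlated pairs, 5 changed with UV in WT mice in the directions that the sign of r gives, 3 changed against it and 2 included Nr1d1, which did not pass. Arntl and Dbp, which had a negative r within groups, were both lower after UV in WT mice, as were Arntl and Nr1d2. Per1 and Cry2, which varied together within groups, went apart, Per1 up and Cry2 down. Arntl and Clock fell together, Per2 and Cry1 rose together, and Per3, Nr1d2 and Dbp fell together, each as their r gives. In KO mice 2 pairs changed as r gives and 1 against it.

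The genes most like Dbp over the 32 mice, among 10122 genes with a mean of at least 5 cpm, included other members of the clock. By Pearson r of the within-group deviations, the 5 highest were Tef (0.88), another PAR bZIP factor, Nr1d2 (0.80), Per3 (0.73), Kank3 (0.71) and Ciart (0.69), a repressor of the Arntl and Clock pair. The 5 lowest were Nr4a3 (-0.69), Ints7 (-0.67), Bzw1 (-0.65), Ston1 (-0.64) and Lims1 (-0.62), and Arntl had the rank of 14 from that end. For Arntl the 5 highest were Fam234b (0.79), Gpr157 (0.77), Homer2 (0.77), Ubqln1 (0.74) and Adh6b (0.74). The 5 lowest were Rras (-0.77), Mllt11 (-0.72), Vegfa (-0.70), Zcchc24 (-0.68) and Tef (-0.68). These values describe likeness over mice, and all genes of a mouse share the depth and scaling of its library. The lists were not computed again without the 9 libraries high in muscle markers.

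The promoters of the clock genes were read for the motifs of the loop in RefSeq windows of GRCm38.p6. These windows run from 250 bases before to 50 bases after an annotated start of transcription. The table held 13 windows for 9 of the 10 genes, all but Per2, with 2 each for Arntl and Per1 and 3 for Clock. The motifs, searched on both strands, were the E-box CACGTG, the D-box TTATGTAA or TTACGTAA, which PAR bZIP proteins such as Dbp and Tef bind, and TAGGTCA, a core of the element bound by the REV-ERB proteins. They occur in 7.15%, 1.06% and 2.61% of all 32851 such windows. The 4 clock gene windows with a match are shown, from Per3, Per1, Cry1 and Arntl. They were picked by the match, and not by the correlations or the UV differences. The windows of Dbp, Nr1d1 and Nr1d2 held no match. Capitals mark the D-boxes in Per3, the E-boxes in Per1 and Cry1 and TAGGTCA in Arntl, and all are written 5′ to 3′ on the strand of the gene.
Per3: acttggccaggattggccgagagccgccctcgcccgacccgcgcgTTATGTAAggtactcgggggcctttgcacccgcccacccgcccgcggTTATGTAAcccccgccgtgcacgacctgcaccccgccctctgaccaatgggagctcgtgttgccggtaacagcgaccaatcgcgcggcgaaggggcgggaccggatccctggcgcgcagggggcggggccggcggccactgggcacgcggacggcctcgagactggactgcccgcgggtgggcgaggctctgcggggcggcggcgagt
Per1: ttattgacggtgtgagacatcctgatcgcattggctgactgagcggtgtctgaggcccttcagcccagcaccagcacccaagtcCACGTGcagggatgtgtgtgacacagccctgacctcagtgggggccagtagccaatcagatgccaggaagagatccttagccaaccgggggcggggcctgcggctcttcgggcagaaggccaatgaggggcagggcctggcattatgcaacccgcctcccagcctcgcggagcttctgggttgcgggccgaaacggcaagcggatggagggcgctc
Cry1: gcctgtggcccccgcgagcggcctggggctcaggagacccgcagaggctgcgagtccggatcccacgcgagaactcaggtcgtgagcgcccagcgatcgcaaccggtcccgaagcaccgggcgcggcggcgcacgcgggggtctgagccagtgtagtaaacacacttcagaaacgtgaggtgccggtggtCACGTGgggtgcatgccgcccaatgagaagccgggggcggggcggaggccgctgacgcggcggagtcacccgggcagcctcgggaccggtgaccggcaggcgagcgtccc
Arntl: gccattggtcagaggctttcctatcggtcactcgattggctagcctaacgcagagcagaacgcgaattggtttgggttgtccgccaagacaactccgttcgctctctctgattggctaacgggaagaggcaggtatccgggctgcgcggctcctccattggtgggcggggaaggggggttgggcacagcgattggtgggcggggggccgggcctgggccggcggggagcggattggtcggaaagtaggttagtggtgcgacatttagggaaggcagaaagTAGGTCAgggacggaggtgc
The Per3 window (chr4:151044616-151044915, minus strand) held 2 D-boxes, whose first bases lie 205 and 158 bases before the start of its window's transcript. The Per1 window (chr11:69098699-69098998, plus strand) held an E-box 166 bases before a start that lies 3732 bases inside the gene as annotated for the counts, and the Cry1 window (chr10:85185005-85185304, minus strand) an E-box 60 bases before its start. In the second Arntl window (chr7:113207261-113207560, plus strand) TAGGTCA began at base 31 after the start, which lies 46 bases inside the gene. The other 9 windows held none of the 3 motifs. A match describes letters in the window, and sites outside it were not searched.

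Other regulators of the clock passed the test about as often as genes at large. Of 19 listed genes 17 were tested, and 4 rose and 7 fell in WT mice, against 71% of all genes past the threshold, and 5 rose and 6 fell in KO mice, against 70.8%, with medians of -0.03 and -0.08 on the log2 scale. Npas2, the paralogue of Clock, was at 3.20, 6.54 and 10.4 cpm (lowest, median and highest) in WT Control and 0.0898, 0.299 and 0.587 cpm in WT UV mice. It was 18.9-fold lower in WT and 10.7-fold lower in KO mice (adjusted p = 2.87e-12 and 9.17e-11). The PAR bZIP gene Hlf was at 37.1, 52.2 and 73.4 cpm in WT Control and 1.82, 2.17 and 4.07 cpm in WT UV mice, 19.97-fold lower in WT and 14.2-fold lower in KO mice (adjusted p = 1.17e-15 and 8.95e-15). Tef, which followed Dbp between mice, did not pass in either genotype (log2 -0.35, adjusted p = 0.144 in WT and -0.04, adjusted p = 0.890 in KO mice). Rora, an activator of Arntl, fell in both genotypes, with a log2 value of -1.48 in WT and -1.54 in KO mice. Btrc, an F-box protein that acts on the Per proteins, fell by 2.60 in WT and by 1.58 in KO mice. The kinase genes Csnk1d and Csnk1e moved apart, with log2 values of 0.82 and -0.68 in WT and 0.78 and -0.86 in KO mice. Noct, a rhythmic phosphatase, rose 4.91-fold in WT and 3.79-fold in KO mice, from a median of 32.4 to 164 cpm in WT mice. Bhlhe40, an E-box repressor, rose in both genotypes (0.71 and 0.61), and Usp2 rose in WT mice (0.46). Bhlhe41 (1.89) and Timeless (0.86) rose in KO mice, for which the test of the difference between genotypes did not pass (adjusted p = 0.115 and 0.147).

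Genes linked to clock output fell or did not pass the test. Of 9 such genes 0 rose and 6 fell in WT mice, against 71% of all genes past the threshold in either direction, and 0 rose and 4 fell in KO mice, against 70.8%, with medians of -0.81 and -0.09. Xpa, a nucleotide excision repair factor whose level is known to follow the clock, was at 7.08, 8.39 and 10.8 cpm in WT Control and 3.71, 4.99 and 6.43 cpm in WT UV mice. It fell by 0.81 on the log2 scale in WT (adjusted p = 1.29e-05) and by 0.66 in KO mice (adjusted p = 0.000163). Of the 4 listed genes known to respond to glucocorticoids, Sgk1 did not pass in either genotype (log2 0.05 in WT and 0.26 in KO mice), while Tsc22d3, Zbtb16 and Fkbp5 fell in both, with log2 values of -2.46, -2.83 and -2.02 in WT and -1.45, -2.01 and -0.62 in KO mice. Wee1, a kinase of the G2 checkpoint, fell by 1.00 in WT mice (adjusted p = 4.84e-05) and was at 0.12 in KO mice (adjusted p = 0.591). Nampt fell by 0.34 in WT mice (adjusted p = 0.0258), and Ciart, of the regulators above, by 0.47 (adjusted p = 0.0386). These last calls were held in 30 of 40 alternative settings for Nampt and in 23 of 40 for Ciart. Cirbp and Hsph1 did not pass in either genotype, with log2 values from -0.28 to 0.30.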

How the data were processed

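Epidermis of 32 mice was profiled by RNA-seq. Per the labels and the study's methods, the authors trimmed reads with cutadapt 1.8, aligned them with STAR 2.5.3a and counted them with HTSeq 0.9.1, and the deposited values are raw read counts per gene. The submitters' processing notes name the mouse build GRCm38 and the methods a human build, while the counted identifiers are mouse genes. The counts were tested with edgeR 4.0.16 (quasi-likelihood test, TMM scaling, R 4.3.3) on the 15546 genes that reached 1 cpm in any mouse, with a mean for each of 8 groups and Benjamini-Hochberg adjustment over all genes; an adjusted p under 0.05 counted as passed. The script was tested on simulated data. Correlations used log2 cpm (prior count 1). DESeq2 1.42.0, limma 3.58.1, other filters and scalings, and leaving out each mouse were alternatives. The members and gene lists were chosen with earlier results of these data known. All members were named, any gene of the lists of other regulators and outputs could be, and the 5 highest and 5 lowest correlates of Arntl and Dbp were. The labels do not say that mice of a group were independent litters. The edgeR p-values set each difference against the spread between these mice. They take the mice as independent, which could not be checked. Gene overlaps came from the GENCODE annotation of GRCm38. The values of 1 gene of the list of other regulators are not reported here.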

Additional observations from a re-analysis of the deposited data

Results flagged for a closer look

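Of 80 sets of 4 mice (10 clock genes in 8 groups), 4 held a mouse set apart from the other 3 by Dixon's test, and chance flags about 1 in 20. Arntl was at 71.84 cpm in KO male Control mouse 52M and at 56.87 to 59.16 cpm in the others. Per2 was at 3.173 cpm in WT male Control mouse 43M and at 1.147 to 1.252 cpm in the others. Cry2 was at 25.8 cpm in WT female UV mouse 57F and at 19.99 to 20.94 cpm in the others. Dbp was at 5.274 cpm in KO female UV mouse 54F, the library high in fibroblast markers, and at 3.246 to 3.381 cpm in the others.

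By the interaction term of edgeR, the UV effect differed between KO and WT mice for 1 of 17 listed regulators and 2 of 9 listed outputs tested. Over all genes the share was 0.765%. The log2 difference was 1.394 for Fkbp5 (adjusted p = 0.00639), 1.02 for Btrc (adjusted p = 0.0178) and 1.122 for Wee1 (adjusted p = 0.0471). The adjusted p was under 0.05 in 38, 36 and 9 of 39 alternative settings, and ranged up to 0.0611, 0.0742 and 0.138. Fkbp5 was already lower in KO than in WT mice without UV (log2 -1.20, adjusted p = 0.00043), and after UV the difference was 0.19 (adjusted p = 0.579). It lies at chr17:28399094-28517527, near the targeted gene Ppard at chr17:28232700-28301474. The part of DNA linked to the targeted allele in the values of Fkbp5 was not tested. Btrc did not pass without UV (-0.20, adjusted p = 0.758) and was higher in KO mice after UV (0.82, adjusted p = 0.00516).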

How the results depend on the processing

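Over the 38 to 40 alternative settings run for each comparison, the number of clock genes past the threshold stayed within 1.5 times its value for the UV effect in WT mice, in KO mice, in WT males, in WT females and in KO males, and was 0 in every one of them for both interactions, for KO against WT and for females against males after UV. In KO females it was 6, and 3 without the 9 libraries high in muscle markers, a setting chosen after seeing the data that left 2 mice a group. For females against males without UV it was 4, 2 with filterByExpr, 2 with no filter, and 1 to 5 with a mouse left out (1 without 54M, 61F or 62F). The number of correlated pairs was 10, 5 in Control mice, 0 in UV mice and 1 without the muscle-high libraries. Of 4670 values of clock genes, 109 changed sign and 0 of these passed the test.

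Counts over all genes moved by more than 1.5 times. The genotype by UV interaction had 119 genes, 841 with DESeq2, 55 with no filter and 30 without the muscle-high libraries. KO against WT had 32 genes without UV (78 with DESeq2 and 18 without those libraries) and 514 after UV (1116 with DESeq2, 260 with limma, 263 with no filter and 26 without those libraries). The sex by UV interaction had 0 genes in edgeR (1091 at an unadjusted p under 0.05), 22 in DESeq2 and 2 in limma. Females against males had 1066 genes without UV (1676 with DESeq2, 653 with filterByExpr, 327 with no filter and 226 without those libraries) and 471 after UV (1196, 239 and 26 with DESeq2, no filter and without those libraries). The cause was not tested. No paired analysis was possible because mice of different groups share no replicate number that pairs them. Low counts limit Per2 and Dbp, and the hour of collection limits every comparison of UV with Control mice.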
